A study of Mus musculus with 8 samples.

Results

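The aldo-keto reductases of the Akr1c family and their relative Akr1d1 were examined in mouse liver, as 8 genes of the 22155 in the deposited count table: Akr1c20, Akr1c6, Akr1c14, Akr1c18, Akr1c19, Akr1c12, Akr1c13 and Akr1d1. They were taken by gene symbol, and all 8 were in the table and passed the low-count filter. The family was chosen by the level of Akr1c20, which was lower in the Yap1 knockouts than in their controls in these same libraries. Members' values in the Yap1 comparison are therefore a description, without a test.

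Each of the 4 groups held 2 libraries, and all mice were C57BL/6 by label and 8 to 10 weeks old. The Yap controls were Yap1 floxed homozygotes given a GFP virus, and the Yap1 knockouts carried a hepatocyte-specific deletion made with an iCre virus, both AAV8 by the design text. The Ctgf controls were Ctgf floxed homozygotes, and the Ctgf knockouts were labelled conditional knockouts, with no Cre driver named in the labels. All groups had been fed the Lieber-DeCarli diet with 1% ethanol over 2 days and then 2% over 10 days, and were injected with carbon tetrachloride (1 µl/g) 2 days before sacrifice, so the controls are injured livers too. The labels name neither the promoter driving the viral iCre nor any pooling of animals.

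Akr1c enzymes use a nicotinamide cofactor to convert ketosteroids and hydroxysteroids into each other, and some also reduce other carbonyl compounds. In this way they set how much active androgen, progestin or oestrogen a cell holds. Akr1d1 acts ahead of several of them: it reduces the double bond of the steroid A ring in the beta configuration, a step needed to make bile acids and to clear steroid hormones in the liver. Rodent Akr1c genes lie in a tandem cluster whose copies have diverged to different degrees.

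The 7 Akr1c members lie on chromosome 13 of GRCm38, from Akr1c14 (4049011 to 4090688, plus strand) through Akr1c18 (4132615 to 4150654, minus), Akr1c13 (4191150 to 4205596, plus), Akr1c19 (4228700 to 4252843, plus), Akr1c12 (4268176 to 4279433, minus) and Akr1c6 (4434306 to 4457877, plus) to Akr1c20 (4486849 to 4523345, minus). Akr1d1 lies apart, on chromosome 6 (37530173 to 37568815, plus). The coding sequence was 972 bases long in each Akr1c gene and 978 in Akr1d1. The 60-base stretch in which Akr1c20 differed most from Akr1c6, its most identical member, is printed. This stretch, coding bases 636 to 695 (642 to 701 in Akr1d1), is where that pair is most easily told apart. It comes from the GENCODE M21 transcripts, and capitals mark bases that differ from Akr1c20.
Akr1c20: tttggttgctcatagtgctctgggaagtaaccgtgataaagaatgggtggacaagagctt
Akr1c6: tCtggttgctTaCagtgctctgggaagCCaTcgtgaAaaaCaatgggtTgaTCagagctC
Akr1c14: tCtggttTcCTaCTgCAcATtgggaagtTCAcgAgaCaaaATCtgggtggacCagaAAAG
Akr1c18: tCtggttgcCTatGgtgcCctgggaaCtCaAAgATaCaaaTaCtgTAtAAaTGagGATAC
Akr1c19: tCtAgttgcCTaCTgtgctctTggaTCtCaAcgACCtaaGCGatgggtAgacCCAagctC
Akr1c12: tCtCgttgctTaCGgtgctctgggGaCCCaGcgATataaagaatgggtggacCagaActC
Akr1c13: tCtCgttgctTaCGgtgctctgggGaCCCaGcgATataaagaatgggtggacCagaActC
Akr1d1: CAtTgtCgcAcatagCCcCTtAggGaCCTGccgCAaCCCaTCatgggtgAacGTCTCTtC

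In this stretch Akr1c6 differed from Akr1c20 at 12 positions, Akr1c12 and Akr1c13 at 15 each and Akr1d1 at 30. Akr1c12 and Akr1c13 were identical to each other in it. Over the whole coding sequence Akr1c20 and Akr1c6 were 92.3% identical, with a longest identical run of 65 bases, and Akr1c12 and Akr1c13 96.2%. Among the other Akr1c pairs, identity ran from 72.02% (Akr1c12 and Akr1c14) to 77.78% (Akr1c12 or Akr1c13 with Akr1c19), and Akr1d1 shared 57.5% to 61.5% with the Akr1c genes. Identity over a whole gene does not tell whether a read can be placed, so each transcript set was searched for stretches that also occur, base for base, in another annotated gene. Of the 75-base stretches of Akr1c20, Akr1c6, Akr1c18 and Akr1d1, 0% were shared with another gene. At 50 bases Akr1c20 shared 1.51% of its stretches, all with Akr1c6. Akr1c12 and Akr1c13 were the pair with most in common, since 17.3% and 14.3% of their 75-base stretches were in the other gene, and a run of 228 identical bases lay in their coding sequences. Akr1c14 shared 5.06% with an overlapping pseudogene, Gm18857, and Akr1c19 3.73% with Marcksl1-ps4, a pseudogene that overlaps its exons. Read length and the counting of reads with several matches are not stated in the labels.

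**Figure D1:**
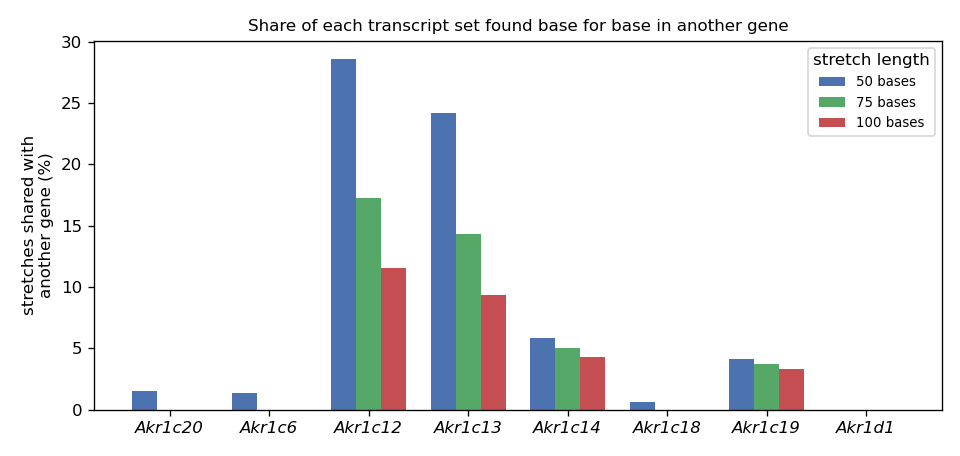
Share of stretches of each gene's GENCODE M21 transcripts (vertical axis, %) that occur base for base in another gene, for stretches of 50, 75 and 100 bases. Akr1c12 and Akr1c13 stand out at 28.6% and 24.2% for 50 bases, and Akr1c20 and Akr1c6 are at 0 for 75 and 100 bases.

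Promoters of 7 members, all but Akr1c20, were in the RefSeq table of GRCm38.p6. The 250 bases before the RefSeq start are printed for the near-identical pair Akr1c12 (chr13:4279400-4279649, minus strand) and Akr1c13 (chr13:4190937-4191186, plus). Those of Akr1c6 (chr13:4434093-4434342, plus), whose level differed most between groups, are printed too. The RefSeq start is not always the GENCODE gene bound given above. The windows of Akr1c6, Akr1c12, Akr1c13 and Akr1c18 reach into those bounds. The windows of Akr1c14 (chr13:4059341-4059590) and Akr1c19 (chr13:4233490-4233739) lie wholly within them. Capitals mark the letters GGAATG on either strand, the core of the site of the TEAD factors through which YAP acts, and, in Akr1c6, a TATAAA.
Akr1c12: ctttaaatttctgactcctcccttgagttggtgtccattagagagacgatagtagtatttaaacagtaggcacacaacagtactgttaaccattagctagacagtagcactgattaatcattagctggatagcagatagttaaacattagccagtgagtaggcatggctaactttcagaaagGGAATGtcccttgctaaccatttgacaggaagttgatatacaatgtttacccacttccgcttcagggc
Akr1c13: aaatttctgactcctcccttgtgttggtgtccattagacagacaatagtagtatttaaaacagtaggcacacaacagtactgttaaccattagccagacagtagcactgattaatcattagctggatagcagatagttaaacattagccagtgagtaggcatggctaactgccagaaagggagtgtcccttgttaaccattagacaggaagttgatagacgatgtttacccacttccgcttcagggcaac
Akr1c6: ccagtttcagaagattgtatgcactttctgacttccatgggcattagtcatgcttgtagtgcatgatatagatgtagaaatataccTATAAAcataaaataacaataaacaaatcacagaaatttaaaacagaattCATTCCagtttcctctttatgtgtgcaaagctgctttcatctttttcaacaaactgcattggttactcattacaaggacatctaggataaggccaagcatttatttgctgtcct

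The promoters of Akr1c12 and Akr1c13 were identical at 95.5% of 246 aligned bases. The letters GGAATG were found at -68 to -63 in Akr1c12 and not in Akr1c13, and Akr1c6 held them on the other strand at -114 to -109. Across all 32851 promoters of this length 12.6% held them, against 2 of the 7 members. TATAAA, found in 12.4% of all promoters, was in Akr1c6 at -164 to -159. TTGCNNAA, a C/EBP motif found in 9.56%, was in Akr1d1 at -8 to -1, and the HNF1 core GTTAAT (6.43% of promoters), the HNF4 letters CAAAGTCCA (0.38%), the AP-1 letters TGANTCA (6.75%) and the HIF letters ACGTG (16.6%) were in none of the 7. These matches describe the windows and say nothing of whether a factor binds.

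Total counts ran from 26904021 to 33488609 per library. The labels do not say that replicates were separate animals, so error terms cover the spread between these libraries, which may be technical. Yap1 itself stood at 31.0 and 32.5 CPM (read counts scaled to library size) in the Yap1 knockouts against 107 and 76.1 CPM in the Yap controls, where CPM is taken over the TMM-scaled library size. Ctgf stood at 8.02 CPM in Ctgf knockout replicate 1, but at 49.2 CPM in the library labelled Ctgf knockout replicate 2, above the Ctgf controls (28.8 and 32.1 CPM), which goes against that label. Liver markers such as Alb and Apob were high in all 8 libraries, and all 11 hepatocyte markers were detected in each. Yap control replicate 2 also held pancreatic transcripts, with a summed level of 14019 CPM over 14 exocrine pancreas markers against 3.46 to 7.82 CPM in the other libraries. The Y-linked genes Ddx3y, Eif2s3y, Kdm5d and Uty were detected in all 8 libraries.

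Levels between members were compared as CPM per kilobase of annotated exon, on the linear scale. That length joins all annotated exons of a gene, 5892 bases for Akr1c19 and 1207 to 3239 for the other members. The order of members therefore depends in part on the annotation, most of all for Akr1c19. In the Ctgf controls Akr1c6, a dehydrogenase of androgens and oestrogens, was by far the most abundant, at 248.9 ± 4.02 (SD, n = 2). Akr1c14, which reduces dihydrosteroids, followed at 24.9 ± 2.78, then Akr1c13 at 20.8 ± 0.860, Akr1c20 at 19.1 ± 3.88 and Akr1c12 at 18.9 ± 0.701. The libraries of Akr1c20 overlapped those of Akr1c13 and of Akr1c12, so these neighbours were not separated beyond their spread. Akr1d1 came next at 7.83 ± 0.962, ahead of Akr1c19 at 2.26 ± 0.135. Akr1c18, the progesterone-inactivating enzyme of the ovary, was lowest at 0.865 ± 0.476.

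In the Yap controls Akr1c6 was also first in each library, but by very different margins: its level per kilobase was 45.2 in replicate 1, where Akr1c14 followed at 32.5, and 172 in replicate 2, where Akr1c12 followed at 33.03. Akr1c12 (27.5 ± 7.83), Akr1c13 (25.9 ± 4.08) and Akr1c14 (23.3 ± 13.1) overlapped one another. Akr1c20 followed at 11.5 ± 0.737. Akr1c19 (2.86 ± 0.579), Akr1d1 (2.604 ± 1.05) and Akr1c18 (1.53 ± 0.831) were low per kilobase and not separated beyond their spread. The exception was that both Akr1c19 libraries were above both Akr1c18 libraries. In plain CPM both Akr1c19 libraries (19.3 and 14.4) were also above both Akr1d1 libraries (5.39 and 9.67).

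The order was different in the Yap1 knockouts. Akr1c12 (15.9 ± 0.922 CPM per kilobase) and Akr1c13 (15.2 ± 0.355) were the most abundant there, ahead of Akr1c6 at 8.35 ± 3.35 and Akr1c14 at 3.43 ± 1.24. Akr1c20 at 0.975 ± 0.247, Akr1d1 at 0.824 ± 0.103 and Akr1c19 at 0.786 ± 0.0683 were close to each other, and the libraries of each overlapped those of the others. Akr1c18 (1.75 ± 1.09) overlapped Akr1c20. In the libraries labelled Ctgf knockout Akr1c6 was again first, at 153 ± 49.0, and Akr1c13 (26.2 ± 11.7), Akr1c14 (26.1 ± 9.49) and Akr1c12 (24.6 ± 10.1) overlapped one another. Akr1c20 (11.3 ± 0.721), Akr1d1 (4.56 ± 1.37), Akr1c19 (3.37 ± 3.39) and Akr1c18 (0.531 ± 0.293) followed there, with overlap between Akr1d1 and Akr1c19. In bulk liver, fewer cells of a type and less transcript per cell cannot be told apart.

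**Figure D2:**
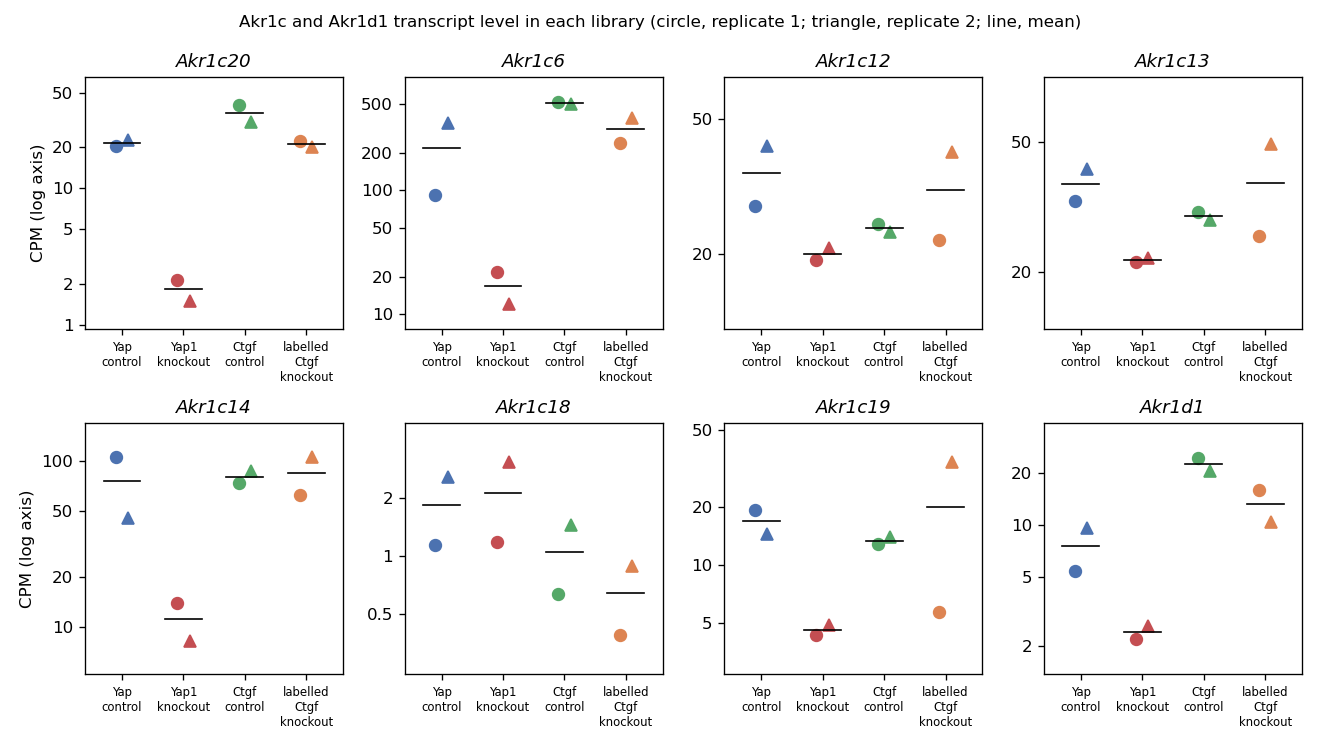
Level of each member in each library in CPM on a log axis, with a range of its own in each panel; circles are replicate 1, triangles replicate 2 and lines the group mean. Akr1c20, Akr1c6 and Akr1c14 sit far below every other group in the Yap1 knockouts, while Akr1c12 and Akr1c13 move little and alike.

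The first comparison asks how the livers without hepatocyte Yap1 differ from GFP-virus controls. Of the 8 members, 7 were lower in both knockout libraries than in both controls, where 20.8% of all 13999 tested genes were, and 0 were higher in both, where 23.6% were. The median log2 fold change was -1.76 over the members and -0.00 over all tested genes. The choice of the family used this comparison, so nothing is read from these counts. The knockouts and controls differ in the virus as well as in Yap1, and those effects cannot be told apart.

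The gene that led to the choice, Akr1c20, which encodes a liver reductase with steroid dehydrogenase activity, measured 20.5 and 22.4 CPM in Yap controls 1 and 2, against 2.14 and 1.49 CPM in Yap1 knockouts 1 and 2. Both controls were close together and each was 9.58 to 15.1 times the level of either knockout. The log2 fold change was -3.56 (SE 0.278). It stayed between -3.84 and -3.32 under all 16 alternative settings.

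Akr1c6 had the lowest log2 fold change of the family, -3.70 (SE 0.638), which makes it 13.02-fold lower in the knockouts. It measured 92.0 and 350.2 CPM in Yap controls 1 and 2, against 21.8 and 12.1 CPM in the knockouts. The groups did not overlap, yet the controls themselves differed, and the higher is the library with pancreatic transcripts. Without that library Akr1c6 was 5.41-fold lower, and without Yap control replicate 1 it was 21.0-fold lower. Akr1c6 ranked 17 and Akr1c20 22 from the lowest log2 fold change among the 13999 tested genes.

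Akr1c14 measured 105 and 45.4 CPM in Yap controls 1 and 2, against 13.96 and 8.27 CPM in the knockouts. Here the library with pancreatic transcripts was the lower of the controls, the opposite of Akr1c6. The log2 fold change was -2.76 (SE 0.469), a 6.78-fold lower level, and 4.17-fold without Yap control replicate 1.

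Akr1c19 measured 19.3 and 14.4 CPM in Yap controls, against 4.34 and 4.91 CPM in the knockouts, with a log2 fold change of -1.87 (SE 0.680). Akr1d1, the beta-reductase of the bile acid pathway, measured 5.39 and 9.67 CPM in Yap controls, against 2.17 and 2.596 CPM in the knockouts (log2 fold change -1.65, SE 0.361). For both genes each control library was at least 2.08 times each knockout library.

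The near-identical pair moved least among the members that were lower. Akr1c12 measured 27.7 and 41.7 CPM in Yap controls, against 19.2 and 20.8 CPM in the knockouts (log2 fold change -0.79, SE 0.319). Akr1c13 measured 33.05 and 41.3 CPM in Yap controls, against 21.4 and 22.1 CPM in the knockouts (log2 fold change -0.77, SE 0.306). The groups did not overlap for either gene. The ratio of Akr1c13 to Akr1c12 counts was 0.992 to 1.25 in all 8 libraries, and their centred log2 profiles differed by a root mean square of 0.11, the least of any member pair. The part of their shared stretches in that likeness was not tested.

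Akr1c18 was the member that was not lower. It measured 1.13 and 2.55 CPM in Yap controls, against 1.18 and 3.05 CPM in the knockouts, so the groups overlapped (log2 fold change 0.21, SE 0.683). Leaving out Yap control replicate 2 gave 0.90 and leaving out Yap1 knockout replicate 2 gave -0.62. Its count was 11 to 88 reads per library.

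**Figure D3:**
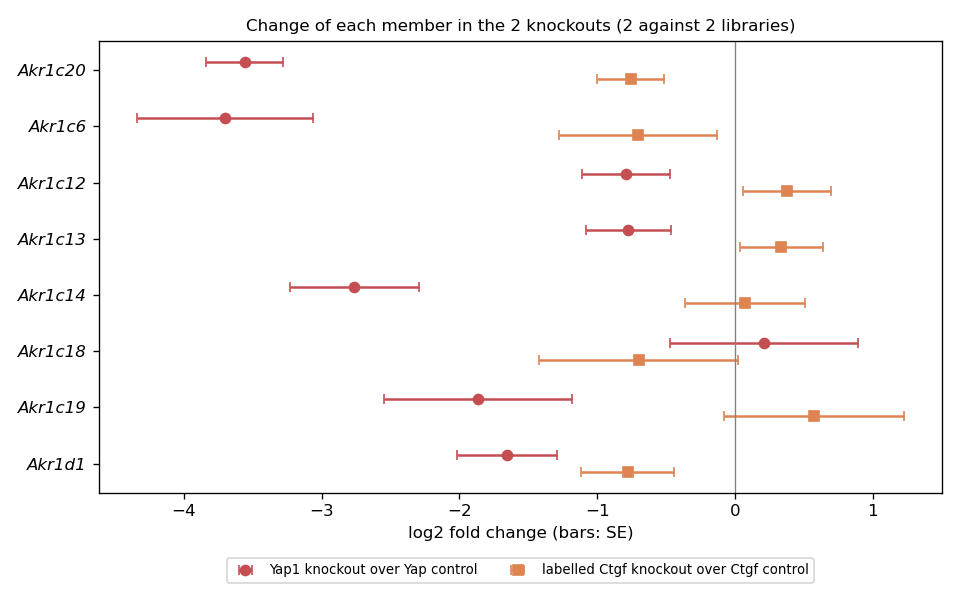
Log2 fold change of each member in the Yap1 comparison (circles) and in the comparison of libraries labelled Ctgf knockout with Ctgf controls (squares), with bars of 1 SE from edgeR, 2 against 2 libraries. In the Yap1 comparison 7 members lie left of 0, from -0.77 for Akr1c13 to -3.70 for Akr1c6; in the Ctgf comparison the values run from -0.78 to 0.57.

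The make-up of the family differed along with its total. Summed over the 8 members, the level was 304 and 528 CPM in the Yap controls and 86.2 and 75.4 CPM in the Yap1 knockouts. Akr1c6 made up 71.1% (95% Wilson interval 70.5% to 71.7%) and 70.9% (70.3% to 71.4%) of the family's counts in the Ctgf controls. In the Yap1 knockouts it made up 25.3% (23.7% to 27.0%) and 16.1% (14.6% to 17.7%). The Yap controls parted: 30.2% (29.4% to 31.1%) in replicate 1 and 66.4% (65.5% to 67.2%) in replicate 2, the library with pancreatic transcripts. Yap control replicate 1 was therefore closer to Yap1 knockout replicate 1 in this share than to the other control. In that replicate 1 control Akr1c14 held the largest share, 34.6%. In the knockouts Akr1c12 and Akr1c13 held 22.3% and 24.8% in replicate 1 and 27.6% and 29.3% in replicate 2. These intervals cover counting error only.

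**Figure D4:**
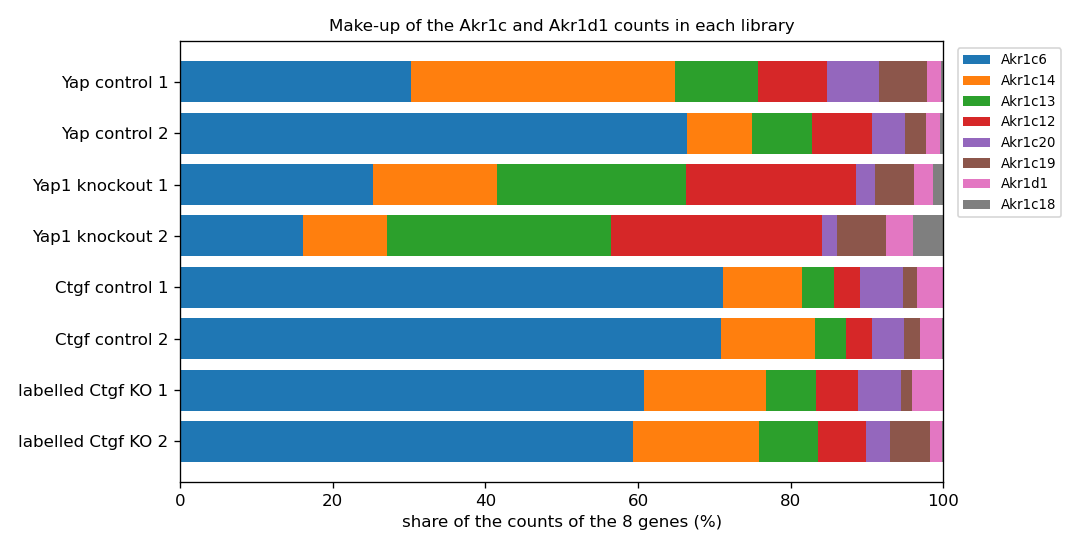
Share of the counts of the 8 genes taken by each gene (horizontal axis, %) in each of the 8 libraries. Akr1c6 takes 59.3% to 71.1% in the Ctgf line and in Yap control 2 (66.4%), and 16.1% to 30.2% in Yap control 1 and the Yap1 knockouts.

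Markers of other cell types and zones were set beside these values. The 11 hepatocyte markers summed to 63410 and 80673 CPM in the Yap1 knockouts, between the Yap controls at 56090 and 95325 CPM. Alb held the largest part of that sum, and 8 of 11 markers had a log2 fold change below 0 with a median of -0.25. The 12 pericentral hepatocyte genes summed to 440.1 and 545 CPM in the knockouts and to 465 and 1162 CPM in Yap controls 1 and 2, with 10 of 12 below 0 and a median of -1.01. The pericentral sum was higher in Yap control replicate 2 than in replicate 1, and Cyp2e1 of that list stood at 394 and 58.8 CPM there. Sums of the hepatocyte, cholangiocyte and erythroid lists were also higher in replicate 2. So were Akr1c6, Akr1d1, Akr1c20, Akr1c12, Akr1c13 and Akr1c18, while Akr1c14 and Akr1c19 were lower in replicate 2. Of 10 markers of adrenal and gonadal steroid synthesis, Cyp11a1 was at 0 to 0.138 CPM, and 3 to 6 of the list were at 0 in each library. Cyp17a1, which mouse liver also expresses, measured 259 and 133 CPM in the knockouts, against 44.4 and 112 CPM in Yap controls. Cholangiocyte markers (8 genes) summed to 656 and 678 CPM in the knockouts, between the Yap controls. These stood at 402 CPM in replicate 1 and at 1499 CPM in replicate 2, the library with pancreatic transcripts. Spp1 held most of the cholangiocyte sum, at 549 ± 23.6 CPM (SD, n = 2) in the knockouts against 841 ± 730 CPM in the controls. By gene, 6 of 8 had a log2 fold change below 0, with a median of -0.46. Sox9 was above 0, at 87.0 ± 9.13 against 51.2 ± 7.61 CPM. Erythroid markers (7 genes) summed to 467 and 403 CPM in the knockouts, above the Yap controls at 123 and 229 CPM. The part of any of these lists in the members' values was not tested.

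The second comparison sets the libraries labelled Ctgf knockout against Ctgf controls, and it did not serve to choose the members. Of the 8 members 0 passed edgeR's quasi-likelihood test, where 0% of the tested genes did. At an unadjusted p under 0.05 there was 1 member, Akr1c20, and 277 genes in all, or 1.98%. DESeq2 called 1 gene of the table higher and 3 lower, limma-voom called 1 lower, and neither called a member. In all, 3 of 8 members were lower in both libraries than in both controls, where 16.8% of tested genes were, and 0 were higher in both, where 15.5% were. These 3 were Akr1c20, Akr1c6 and Akr1d1.

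Akr1c20 measured 40.7 and 30.5 CPM in Ctgf controls, against 22.0 and 20.1 CPM in the labelled knockouts. The log2 fold change was -0.76 (SE 0.244, 95% interval -1.32 to -0.19, edgeR adjusted p = 1, with 0.286 the lowest over the alternatives). It was -0.69 without the library labelled Ctgf knockout replicate 2, and -0.81 without replicate 1. Akr1d1 measured 24.6 and 20.7 CPM in Ctgf controls, against 15.998 and 10.4 CPM in the labelled knockouts. Its log2 fold change was -0.78 (SE 0.339, 95% interval -1.56 to 0.01, edgeR adjusted p = 1, with 0.313 the lowest over the alternatives), and -0.50 without that library. Akr1c6 measured 512 and 500.2 CPM in Ctgf controls, against 240.0 and 381 CPM in the labelled knockouts. Its log2 fold change was -0.70 (SE 0.573, 95% interval -2.03 to 0.62, edgeR adjusted p = 1, with 0.221 the lowest over the alternatives), and -1.08 without that library. For these 3 genes the groups did not overlap, yet no difference passed the test.

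The other members were split by library. In Ctgf knockout replicate 1 all 8 members were below both Ctgf controls, as were 39.7% of tested genes. In the library labelled Ctgf knockout replicate 2, 4 members were above both controls (39.7% of tested genes) and 3 below both (42.9%). Akr1c19 parted most, at 5.71 CPM in replicate 1 and 34.0 CPM in replicate 2, around controls at 12.8 and 13.9 CPM. Its log2 fold change of 0.57 (SE 0.651, edgeR adjusted p = 1) became -1.22 without that library. Akr1c14 measured 62.9 and 106 CPM against controls at 74.2 and 86.9 CPM, with a log2 fold change of 0.07 (95% interval -0.94 to 1.08).

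Akr1c12 measured 22.0 and 40.0 CPM in the labelled knockouts against 24.5 and 23.2 CPM in the controls, and Akr1c13 at 25.7 and 49.5 CPM against 30.6 and 28.9 CPM. Their log2 fold changes were 0.38 (SE 0.317) and 0.34 (SE 0.303), and -0.12 and -0.21 without the library labelled replicate 2 (edgeR adjusted p = 1 for each). Akr1c18 measured 0.390 and 0.890 CPM against 0.638 and 1.45 CPM, with a log2 fold change of -0.70 (SE 0.724, 95% interval -2.37 to 0.98), -1.41 without that library and 0.03 without Ctgf control replicate 2. The summed hepatocyte markers also parted these libraries, at 62587 CPM in replicate 1 and 99390 CPM in replicate 2 against 61069 and 57486 CPM in the controls. Most of that difference was Alb, at 33585 CPM in replicate 1 and 69274 CPM in replicate 2. Apob went the other way, at 6749 and 5809 CPM. The part of these markers in the split was not tested.

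Between the control groups 3 members were higher in both Ctgf controls than in both Yap controls, where 27.0% of tested genes were, and 3 were lower in both, where 26.1% were. Akr1d1 was 3.01-fold higher in the Ctgf controls (log2 difference 1.59, SE 0.347), Akr1c6 2.29-fold (1.19, SE 0.579) and Akr1c20 1.66-fold (0.73, SE 0.244). Akr1c12, Akr1c13 and Akr1c19 were lower, with log2 differences of -0.54, -0.32 and -0.34. Without Yap control replicate 2 the log2 difference of Akr1c6 was 2.47, and without replicate 1 it was 0.51. These values are a description, since the Yap controls also enter the Yap1 comparison, and the floxed allele and the virus cannot be told apart between the lines.

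Genes with the most similar profile were sought by the root mean square difference of centred log2 CPM over the 8 libraries, among 10650 genes. Akr1c20 was followed most closely by Slc26a10 (0.36), Slc22a30 (0.54), Mfsd7c (0.60) and Ppp1r3c (0.61), a glycogen-targeting phosphatase subunit. Slc26a10 measured 0.296 and 0.311 CPM in the Yap1 knockouts, against 2.96 to 6.45 CPM in the other libraries. Akr1c6 was followed at a greater distance, by Ppp1r3c (0.68), Abcc12 (0.68), Cyp2c68 (0.74) and Slc26a10 (0.77). Akr1d1 had the closest partner of the 3, Aldh1a1 (0.25), a retinal dehydrogenase of pericentral hepatocytes, then Rin1 (0.32), Mfsd7c (0.38) and Adh4 (0.40), an alcohol dehydrogenase. Aldh1a1, which is also on the pericentral list, measured 51.8 and 70.6 CPM in the Yap1 knockouts, 141 and 263 CPM in the Yap controls, 523 and 532 CPM in the Ctgf controls and 307 and 368 CPM in the labelled Ctgf knockouts. Akr1c20 itself lay nearer to Akr1c6 (0.63) and Akr1c14 (0.65) than to the other members.

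Of 12 other aldo-keto reductases 10 were tested, and 0 passed edgeR's test in either comparison, where 0.0286% of all tested genes passed in the Yap1 comparison. Their median log2 fold change was -0.41 in the Yap1 comparison, with 1 at an unadjusted p under 0.05 (13.8% of all tested genes), and 0.18 in the Ctgf comparison. Akr7a5, which reduces aflatoxin dialdehyde and succinic semialdehyde, stood at 52.9 ± 8.32 against 102 ± 55.9 CPM (SD, n = 2) in the Yap1 comparison. Akr1e1, a neighbour of the cluster, stood at 14.8 ± 2.67 against 21.8 ± 6.13 CPM, and Kcnab3, a potassium channel subunit of the same superfamily, at 0.775 ± 0.0680 against 1.64 ± 0.877 CPM. In the Ctgf comparison Akr1b10, Kcnab1 and Kcnab3 had log2 fold changes of -0.49, -0.80 and 0.38. Akr1c21 was at 0 to 3 counts in every library, and Akr1cl was listed at 0 in all 8.

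Of 39 genes of steroid hormone metabolism 30 were tested, and 0 passed edgeR's test in either comparison. In the Yap1 comparison 11 of 30 had an unadjusted p under 0.05 (13.8% of all tested genes), with 19 below 0 and a median of -0.21. Hsd3b2 and Hsd3b3, hydroxysteroid dehydrogenases of a family of close copies, stood at 0.0848 ± 0.0269 against 0.943 ± 0.238 CPM and at 1.06 ± 0.109 against 4.79 ± 2.31 CPM (edgeR adjusted p = 0.0959 and 0.135). Hsd17b7, which acts in cholesterol synthesis as well, went the other way, at 270.0 ± 99.6 against 59.9 ± 0.768 CPM (edgeR adjusted p = 0.0557). In the Ctgf comparison 2 of 30 had an unadjusted p under 0.05 (1.98% of all tested genes), and the smallest p-values were those of Hsd3b5 (log2 fold change 2.10, SE 0.699), Hsd3b3 (-1.16, SE 0.420) and the glucuronosyltransferase Ugt2a3 (-0.44, SE 0.209; edgeR adjusted p = 1 for each).

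The bile acid synthesis list, in which Akr1d1 acts, had 19 genes, all tested, and 0 passed edgeR's test in either comparison. In the Yap1 comparison the median was -0.31, with 11 below 0 and 2 of 19 at an unadjusted p under 0.05, where 13.8% of all tested genes were. Slc27a2, a very long chain acyl-CoA synthetase, stood at 316 ± 48.6 against 710.1 ± 274 CPM and Nr1h4, the bile acid receptor FXR, at 50.9 ± 4.54 against 89.3 ± 1.89 CPM (edgeR adjusted p = 0.204 and 0.153). Baat, which conjugates bile acids, stood at 66.7 ± 12.2 against 48.9 ± 0.191 CPM (edgeR adjusted p = 0.371). In the Ctgf comparison 17 of 19 were above 0 and the median was 0.25. Log2 fold changes were 1.31 (SE 0.433) for Cyp2c70, 1.55 (SE 0.653) for the sterol hydroxylase Cyp8b1 and 0.39 (SE 0.199) for Baat. For each of these genes edgeR adjusted p = 1. Summed over the list, Ctgf knockout replicate 1 stood at 2467 CPM, between the Ctgf controls at 2471 and 2393 CPM. The library labelled Ctgf knockout replicate 2, whose Ctgf level goes against its label, stood at 3288 CPM. The part of that library in the genes above 0 was not tested.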

How the data were processed

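RNA of frozen liver was sequenced in 8 libraries, 2 in each of 4 groups. The authors deposited whole-number read counts per gene symbol, and the submitters' processing notes name HTSeq 0.6.1, STAR 2.6.0a, bcl2fastq 2.20.0.422 and the builds mm10 and GRCm38. Annotation, strand setting, read length and treatment of reads with several matches are not stated there. All 8 libraries entered a single fit of 4 groups with edgeR 4.0.16 (R 4.3.3), with TMM scaling, the default low-count filter (13999 genes left) and the quasi-likelihood test on 4 residual degrees of freedom. P-values were adjusted by Benjamini-Hochberg over all genes tested, with a threshold of 0.05. SE is the log2 fold change over the root of F. CPM uses the TMM-scaled library size, and profiles used log2 of CPM plus 0.1. DESeq2 1.42.0, limma-voom (limma 3.58.1) and other settings were alternatives, and the test was checked on simulated data. Exon lengths and transcripts are those of GENCODE M21, on GRCm38, in which 21712 of 22155 symbols matched.

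The members, the 12 lists and the pair of libraries left out together were chosen with earlier results of these data known. Named genes are the 8 members, Yap1 and Ctgf, the 4 genes with the most similar profile to Akr1c20, Akr1c6 and Akr1d1 (at least 5 CPM in a group, no Gm or Rik names), the 3 genes with the smallest p per pathway list and comparison, and up to 3 genes per marker list.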

Additional observations from a re-analysis of the deposited data

How the results depend on the processing

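Across the 16 alternatives the median log2 fold change of the members in the Yap1 comparison ran from -1.87 to -1.62, and from -1.87 to -1.62 with each library left out in turn. The number of members past the test in the Ctgf comparison was 0 throughout. Between the control groups the median log2 difference was -0.11, and -0.17 to 0.19 with each library left out in turn. Of the 58 pathway genes tested in the Yap1 comparison 0 passed. The number was 10 with DESeq2 and 1 when low-count genes were kept (Hsd17b7). It was 12 when Yap control replicate 2, with pancreatic transcripts, was left out along with labelled Ctgf knockout replicate 2, and 0 to 17 with each library left out in turn. The count of 17 came without Yap control replicate 1, and without Yap control replicate 2 it was 1 (Akr1b7). With a single library left in a group, that library is assumed to vary like the other groups.

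In the Ctgf comparison some values changed sign. Without both libraries named above the log2 fold changes of Akr1c12, Akr1c13, Akr1c14 and Akr1c19 were -0.12, -0.21, -0.36 and -1.22. With each library left out in turn they ran from -0.12 to 0.76, from -0.21 to 0.75, from -0.36 to 0.42 (-0.033 without Ctgf control replicate 1) and from -1.22 to 1.36, and those of Akr1c18 from -1.41 to 0.03 (0.025 without Ctgf control replicate 2). The share of Akr1c20 stretches found in another gene was 0% at 75 and 100 bases and 1.51% at 50 bases. Same-numbered libraries of a line deviated together only weakly over genes (correlation 0.09 in the Yap line and 0.07 in the Ctgf line), and no label states a shared litter, batch or day, so the numbers were not taken to pair them. The titles of both Yap controls also name, by a number, a knockout that they are the control for. In replicate 1 that number recurs in the column name of the control itself. For Yap control replicate 2 it recurs in the column name of Yap1 knockout replicate 2, so that title names the same-numbered knockout. With the replicate number as a block 0 members passed in the Ctgf comparison and the median of the members in the Yap1 comparison was -1.73. Over all genes of the table the Yap1 comparison called 3 higher and 1 lower. By the same order DESeq2 called 271 and 243, the table with low-count genes kept 24 and 13, the block 12 and 7, leaving out that pair of libraries 530 and 408, leaving out Yap control replicate 2 alone 22 and 18, and the fit lacking Yap control replicate 1 called 1788 and 1940. It called 0 when the Ctgf line was not in the fit, and without either Yap1 knockout or either library labelled Ctgf knockout.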

Other observations

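Akr1b7, a reductase of the neighbouring Akr1b family that was chosen after its values were seen, stood at 0.498 CPM in Yap control replicate 1 and at 4.07 to 5.79 CPM in the other 7 libraries. The library that stands apart here is the control without pancreatic transcripts. Female-biased liver genes were higher in every Ctgf line library than in every Yap line library in sum, and all 8 libraries held Y-linked transcripts. The female-biased list (10 genes) summed to 1.09 to 8.23 CPM in the Yap line and to 12.4 to 38.8 CPM in the Ctgf line. Cyp2b9, chosen likewise, stood at 3.48 to 14.9 CPM in the Ctgf line and at 0 to 0.165 CPM in the Yap line. Cyp2a4 stood at 2.53 to 10.1 CPM in the Ctgf line and at 0.0830 to 2.35 CPM in the Yap line. Other genes of the list went the other way between the controls: Cux2 stood at 5.76 ± 0.694 CPM (SD, n = 2) in the Yap controls and 2.42 ± 1.53 CPM in the Ctgf controls, and A1bg at 0.338 ± 0.0700 and 0.177 ± 0.0707 CPM. The male-biased list summed to 451 and 596 CPM in the Yap1 knockouts and 541 and 1234 CPM in the Yap controls, with 6 of 9 log2 fold changes below 0.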
